A study of Mus musculus with 12 samples.

Results

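The pancreatic elastases, chymotrypsins and carboxypeptidases are protein-digesting enzymes that acinar cells make, pack into zymogen granules and secrete as inactive precursors. The genes described here are Ctrb1 and Ctrl (chymotrypsins), Cela1, Cela2a and Cela3b (elastases) and Cpa1 and Cpb1 (carboxypeptidases), chosen by name as 7 of the 46095 rows of the deposited count table. RNA was sequenced from pancreas of mice at postnatal day 56 after caerulein pancreatitis, with 6 C57BL/6J wild type libraries (WT 1 to 6) and 6 libraries of Axl-/-Mertk-/- mice (AMKO 1 to 6), which lack 2 receptor tyrosine kinases of phagocytes. All mice of both genotypes had been given 10 intraperitoneal injections of caerulein, a cholecystokinin analogue, at 1 h spacing and 100 µg/kg, and were killed at 12 h after the first. No label names the strain on which the AMKO mice were bred, so a strain difference and receptor loss cannot be told apart. Untreated pancreas was not analysed here, so each value compares genotypes within pancreatitis.

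In a healthy gland these enzymes become active only in the gut, where trypsin cleaves their precursors. Chymotrypsins cut proteins after large aromatic residues, elastases after smaller or aliphatic residues, and carboxypeptidases remove residues from the C-terminal end of the fragments. Premature activation of zymogens inside acinar cells is an early event of caerulein pancreatitis. Transcription of the enzyme genes in acinar cells depends on the PTF1 complex, in which PTF1A and an E protein bind an E-box while RBPJL binds a neighbouring TC-rich box.

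Paired elements of this kind were found in the promoters of 3 of the 7 genes, 1 from each enzyme class. RefSeq windows on GRCm38.p6, from 250 bases before to 50 bases after the annotated start, were searched for the E-box CANNTG within 20 bases of the TC-box TTTCCC, on both strands (the reverse of TTTCCC is GGGAAA, and the E-box reads the same on both strands). Such a pair was present in 4.7% of all 32851 windows of this length, and it is a match of letters, not a shown binding site. The 3 windows are printed because they hold the paired motif of the PTF1 complex. The mRNA of its subunit PTF1A was called higher in AMKO by edgeR, though not in every fit on parts of the libraries. No mRNA of the 7 enzymes was called, and no test compared their fold changes with that of Ptf1a. Each window reads 5′ to 3′ on the gene's strand with the paired motifs in capitals. Ctrb1 lies at chr8:111690961-111691260 (minus strand), Cela1 at chr15:100687871-100688170 (minus strand) and Cpa1 at chr6:30638968-30639267 (plus strand).
Ctrb1: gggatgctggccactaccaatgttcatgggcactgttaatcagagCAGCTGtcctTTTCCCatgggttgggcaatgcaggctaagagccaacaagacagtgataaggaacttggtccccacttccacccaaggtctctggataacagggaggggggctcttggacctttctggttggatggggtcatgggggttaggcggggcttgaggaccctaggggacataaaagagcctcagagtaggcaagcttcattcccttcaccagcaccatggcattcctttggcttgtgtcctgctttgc
Cela1: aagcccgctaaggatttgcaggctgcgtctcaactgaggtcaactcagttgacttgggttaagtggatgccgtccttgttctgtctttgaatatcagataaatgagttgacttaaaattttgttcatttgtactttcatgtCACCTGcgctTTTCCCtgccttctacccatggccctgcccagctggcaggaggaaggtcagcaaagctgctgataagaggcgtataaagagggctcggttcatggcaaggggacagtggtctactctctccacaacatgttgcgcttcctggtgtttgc
Cpa1: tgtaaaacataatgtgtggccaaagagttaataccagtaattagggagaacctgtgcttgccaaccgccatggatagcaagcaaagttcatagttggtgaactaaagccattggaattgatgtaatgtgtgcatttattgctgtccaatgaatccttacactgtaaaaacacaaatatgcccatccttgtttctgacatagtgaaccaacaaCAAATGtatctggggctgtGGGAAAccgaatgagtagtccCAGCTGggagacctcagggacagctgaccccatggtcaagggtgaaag
In Ctrb1 the E-box CAGCTG and in Cela1 the E-box CACCTG stand 4 bases before TTTCCC. In Cpa1 the reversed box GGGAAA has an E-box on either side, CAAATG at a distance of 13 bases and CAGCTG at 15 bases. This CAGCTG begins 2 bases past the annotated start. The windows of Ctrl, Cela2a, Cela3b and Cpb1 held no such pair, although each of them held at least 1 E-box, as did 72.3% of all windows. A TC-box was found in 4 of the 7 windows and in 25.2% of all, and TATAAA (either strand) in 2 of the 7 and in 13.6% of all.

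The library labels were checked on the targeted genes. Axl stood at 58.9 ± 12.3 CPM (counts scaled to CPM on TMM-adjusted library sizes; SD, n = 6) in wild type, against 9.09 ± 2.21 CPM in AMKO (log2 fold change -2.69, SE 0.18, edgeR adjusted p = 1.95e-06). Mertk stood at 6.90 ± 2.96 and 6.75 ± 2.39 CPM, a sum over all its exons, which cannot show whether some of them are missing. Total counts per library ran from 10668637 to 15184371. Of 13743 genes tested by edgeR's quasi-likelihood test, 794 were called at an adjusted p (Benjamini-Hochberg) under 0.05, which is 5.78% of them. Summed leukocyte markers were lowest in WT 3, WT 6, AMKO 3 and AMKO 6 (383 to 533 CPM, against 792 to 1886 CPM in the others). The liver transcript Alb had 2 to 7 counts in WT 1 to 3 and 141 to 309 counts in the other 9 libraries. None of the 7 enzyme genes was called without WT 3, WT 6, AMKO 3 and AMKO 6, or with WT 1 to 3 or WT 4 to 6 alone as wild type. Over the whole table these smaller fits called only 98, 231 and 167 genes in turn. They therefore cannot show that the libraries left out had no part in the enzyme results.

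None of the 7 genes passed the test for a difference between AMKO and wild type. Their log2 fold changes (AMKO minus wild type) ran from -0.06 to 0.31, with 5 above 0 and 2 below, and a median of 0.07 beside -0.002 over all genes tested. No gene of the 7 had an unadjusted p under 0.05, beside 21.9% of all genes tested, and in none did the genotypes fail to overlap, beside 3.54% of all genes. DESeq2 and limma voom also called 0 of the 7. Counts on each gene in each library ran from 71933 to 1244503, so counting error (at most 0.373% of a count) was far smaller than the spread between libraries, and this spread sets the precision. Nothing ties the samples to separate mice, so p-values measure the spread between these samples, which may be technical.

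**Figure D1:**
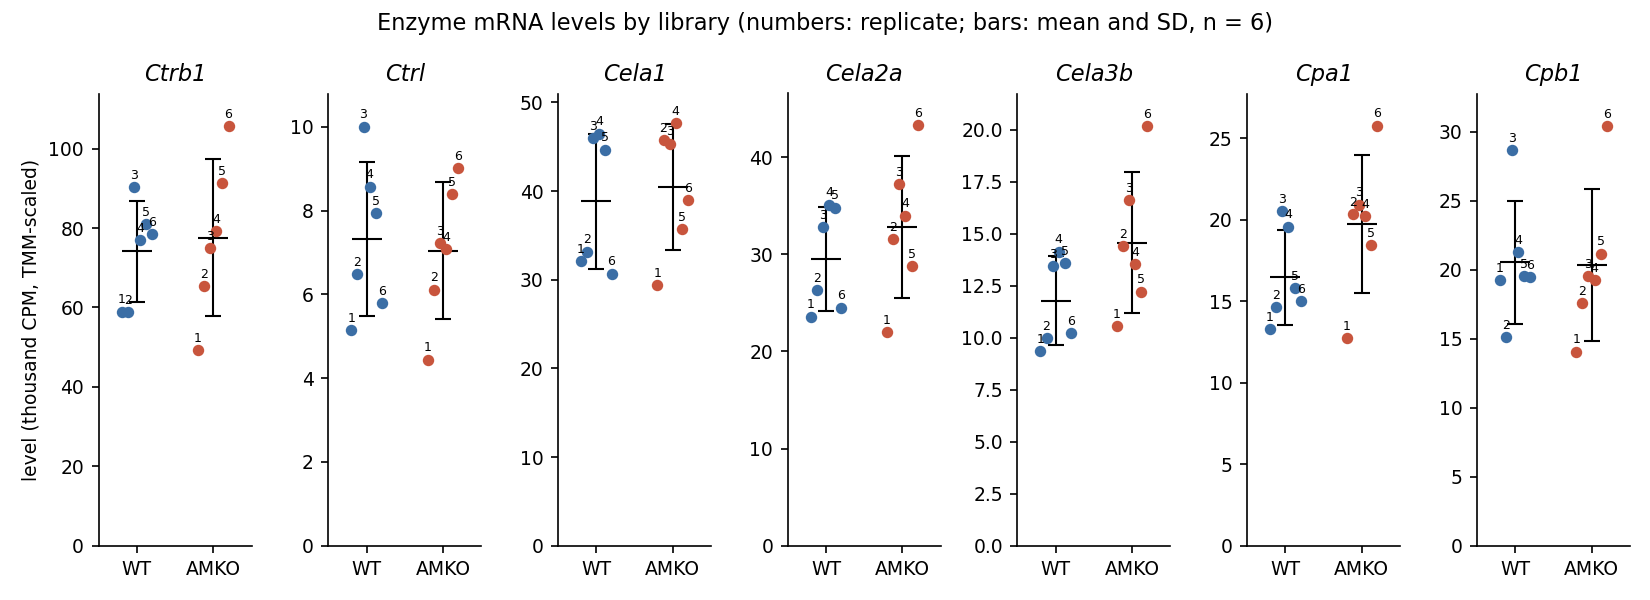
Level of each enzyme mRNA in CPM (TMM-scaled, in the multiples that the axis title gives) by library, with each axis starting at 0; points are libraries labelled by replicate number, and bars are the mean and SD of 6 libraries. In all 7 genes the WT and AMKO points overlap, and AMKO 1 and AMKO 6 lie far apart in every panel but Cela1.

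Of the chymotrypsins, Ctrb1, the major chymotrypsinogen of the mouse pancreas, was the most counted of the 7 genes. It ran from 58884 over a median of 77789 to 90369 CPM in wild type and from 49242 over 77094 to 105654 CPM in AMKO. The AMKO libraries thus reached both lower and higher than any wild type library, with the lowest value in AMKO 1 and the highest in AMKO 6. The log2 fold change was 0.07 (SE 0.18, 95% interval -0.31 to 0.44, edgeR adjusted p = 0.863). The group means were 74132 ± 12679 and 77622 ± 19684 CPM (SD, n = 6 each).

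Ctrl, which encodes a chymotrypsin-like protease, ran from 5152 over 7211 to 10003 CPM in wild type and from 4438 over 7157 to 9017 CPM in AMKO. Its highest library was WT 3 and its lowest AMKO 1, and the medians of the genotypes were close. The estimated log2 fold change was -0.06 (SE 0.19, 95% interval -0.46 to 0.35, edgeR adjusted p = 0.896). Ctrb1 and Ctrl lie on chromosome 8, at 111686519 to 111691010 and 105932003 to 105933862 (GRCm38).

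Among the elastases, Cela1 (chromosome 15, 100674421 to 100687921) encodes elastase 1, an enzyme that the mouse pancreas makes and the human pancreas does not. It ran from 30706 over 38918 to 46487 CPM in wild type and from 29365 over 42167 to 47669 CPM in AMKO. WT 1, 2 and 6 lay between 30706 and 33165 CPM and WT 3, 4 and 5 between 44670 and 46487 CPM. The gap between these sets was wider than that between the genotype means (38840 and 40465 CPM). The sets were formed from the values themselves, so the 2 gaps are unlike measures. The log2 fold change was 0.06 (SE 0.15, 95% interval -0.27 to 0.39, edgeR adjusted p = 0.860).

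Cela2a (chromosome 4, 141814962 to 141826160) encodes elastase 2A, which cuts after bulky hydrophobic residues. It ran from 23563 over 29553 to 35102 CPM in wild type and from 21972 over 32773 to 43276 CPM in AMKO, with AMKO 3 and AMKO 6 above every wild type library and AMKO 1 below. The estimated log2 fold change was 0.15 (SE 0.16, 95% interval -0.20 to 0.50, edgeR adjusted p = 0.629). The gene lies inside the annotated span of Ctrc on the same strand and shares 305 of its 1723 exonic bases with it, so the split of counts between the 2 genes is uncertain.

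Cela3b (chromosome 4, 137420999 to 137430540) encodes elastase 3B, which prefers small residues such as alanine, and had the largest fold change of the 7 genes. It ran from 9350 over 11825 to 14125 CPM in wild type and from 10559 over 13957 to 20157 CPM in AMKO. AMKO 2, AMKO 3 and AMKO 6 lay above every wild type library, the other 3 AMKO libraries within the wild type range. The log2 fold change was 0.31 (SE 0.16, 95% interval -0.04 to 0.66, edgeR unadjusted p = 0.0802, adjusted p = 0.290). As a fold this is 1.24, with an interval from 0.971 to 1.57.

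Of the carboxypeptidases, Cpa1 (chromosome 6, 30639218 to 30645363) encodes carboxypeptidase A1, which removes aromatic and aliphatic C-terminal residues. It ran from 13263 over 15395 to 20530 CPM in wild type and from 12717 over 20287 to 25769 CPM in AMKO. AMKO 3 and AMKO 6 exceeded every wild type library, while AMKO 1 was the lowest of all 12. The estimated log2 fold change was 0.26 (SE 0.16, 95% interval -0.08 to 0.60, edgeR adjusted p = 0.360).

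Cpb1 (chromosome 3, 20248264 to 20275733) encodes carboxypeptidase B1, which removes C-terminal lysine and arginine. It ran from 15102 over 19478 to 28671 CPM in wild type and from 14065 over 19385 to 30391 CPM in AMKO. In each genotype a single library, WT 3 and AMKO 6, stood well above the other 5. The log2 fold change was -0.01 (SE 0.18, 95% interval -0.40 to 0.37, edgeR adjusted p = 0.9755).

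**Figure D2:**
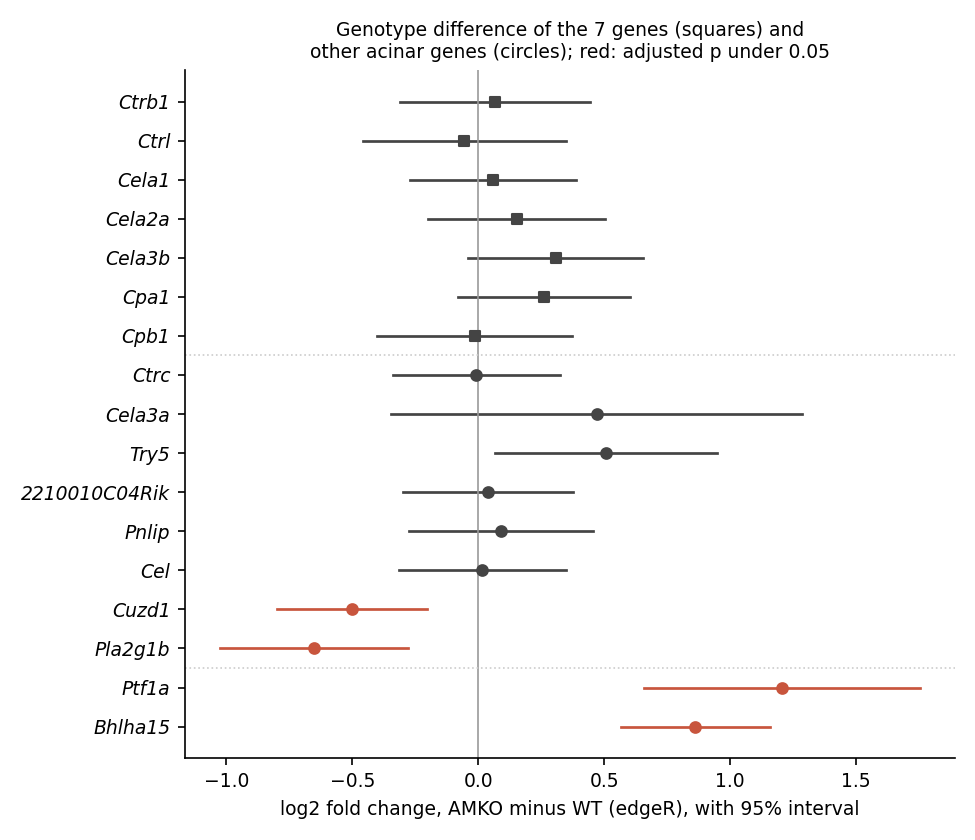
Log2 fold change of AMKO minus wild type with its 95% interval (edgeR, 12 libraries) for the 7 enzyme genes (squares) and for other acinar genes (circles), with those at an adjusted p under 0.05 in red. The 7 intervals all cross 0, whereas those of Ptf1a and Bhlha15 lie above 0.5.

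Together the 7 genes took 19.97% ± 2.06 of all counts in wild type, against 20.7% ± 2.34 in AMKO (SD, n = 6 each), and the ranges of 17.3% to 22.3% and 16.6% to 23.5% overlapped. This share is taken on raw counts without scaling. Ctrb1 alone took 7.46% ± 0.893 and 7.53% ± 1.42, Cela1 3.90% ± 0.547 and 3.96% ± 0.546, and Cela2a 2.97% ± 0.399 and 3.18% ± 0.422. Cpb1 took 2.06% ± 0.319 and 1.97% ± 0.359, Cpa1 1.66% ± 0.185 and 1.91% ± 0.239, Cela3b 1.18% ± 0.152 and 1.41% ± 0.205, and Ctrl 0.734% ± 0.140 and 0.685% ± 0.120. Each share of a single library had a 95% Wilson interval of at most 0.0172 percentage points to either side, which covers counting error only.

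**Figure D3:**
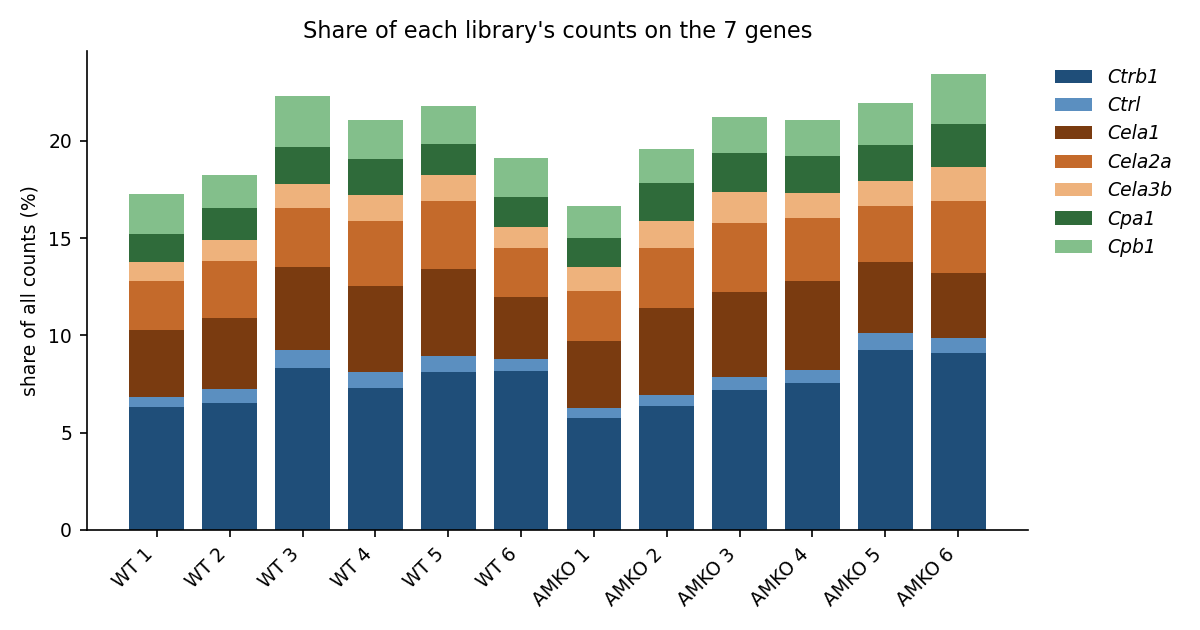
Share of each library's raw counts, in percent, on the 7 enzyme genes, stacked in the order of the legend from the bottom. The whole bar runs from 16.6% in AMKO 1 to 23.5% in AMKO 6, and the Ctrb1 segment is the largest in all 12 libraries.

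By class, chymotrypsins made up 41.0% ± 2.56 of the counts on the 7 genes in wild type, against 39.6% ± 3.88 in AMKO. Elastases made up 40.3% ± 3.01 and 41.6% ± 4.13, and carboxypeptidases 18.6% ± 1.498 and 18.8% ± 0.948 (SD, n = 6 each). In every class the difference between genotypes was smaller than the spread within each of them.

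In TMM-scaled CPM the libraries at the ends of the range were the same for most of the genes. AMKO 1 held the lowest CPM of 6 of the 7 genes, the exception being Cela3b, which was lowest in WT 1. AMKO 6 held the highest of 5, the exceptions being Ctrl (WT 3) and Cela1 (AMKO 4). This order rests in part on the TMM factors, which were highest in AMKO 1 (1.17) and lowest in AMKO 6 (0.860). By share of raw counts, Cela1 was lowest in WT 6 (3.19%), and Cela2a (2.52%) and Cpa1 (1.42%) in WT 1. By that share Ctrb1 was highest in AMKO 5 (9.27%) and Cpb1 in WT 3 (2.65%). From the lowest to the highest of the 12 libraries, CPM differed 1.62-fold for Cela1 and 1.97-fold to 2.25-fold for the other 6 genes. Within wild type the span was 1.49-fold to 1.94-fold, and within AMKO 1.62-fold to 2.16-fold. The fold between genotypes reached at most 1.24, but it compares groups of 6 libraries, whereas a span compares single libraries.

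Markers of other cells differed between these libraries too. The summed level of the 13 tested leukocyte markers was 1629 CPM in AMKO 1 and 1547 CPM in WT 1, against 466 CPM in AMKO 6 and 383 CPM in WT 3, where the enzyme genes were high. AMKO 5 had the highest leukocyte sum (1886 CPM) with Ctrb1 at 91265 CPM, the second highest of all libraries. WT 6 had a low sum (485 CPM) with the lowest Cela1 of the wild type libraries. Across genotypes the leukocyte sum ran from 383 to 1547 CPM in wild type and from 466 to 1886 CPM in AMKO, and 0 of the 13 markers were called (0 at an unadjusted p under 0.05, 0 by DESeq2 or voom). The summed duct and metaplasia markers were lowest in AMKO 1 (19300 CPM, against 25203 to 33452 CPM elsewhere). To weigh these markers equally, the deviation of each one's log2 CPM from its mean over the 12 libraries was averaged. That average was lowest in AMKO 5 (-0.42), with AMKO 1 next (-0.40). The part of these cells in the enzyme levels was not tested, and in bulk tissue fewer acinar cells and less enzyme mRNA per cell cannot be told apart.

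Ratios between the 7 genes within a library do not depend on library scaling, and they split the genes into unlike pairs. The steadiest pair was Cela2a and Cela3b, whose log2 ratio of counts had an SD of 0.11 over the 12 libraries, followed by 0.13 for Cela3b and Cpa1 and 0.13 for Cela2a and Cpa1. Ctrb1 moved most closely with Cpb1 (SD 0.16) and next with Ctrl (0.17). The least steady pair was Cela1 and Cpb1, with an SD of 0.32, and Cela1 and Ctrb1 had 0.30. These values describe 12 libraries and have no test.

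The largest shifts between genotypes in these ratios involved Ctrl or Cela3b. The log2 ratio of Ctrl to Cela3b was -0.70 ± 0.16 in wild type, against -1.05 ± 0.28 in AMKO, a shift of -0.35 (SD, n = 6 each). For Cela3b to Cpb1 the shift was 0.32, and for Ctrl to Cpa1 it was -0.30. In the ratios of Ctrl to Cela2a, to Cela3b and to Cpa1, 5 of the 6 AMKO libraries lay below the lowest wild type library, and AMKO 5 did not. These ratios share the counts of Ctrl, were picked for their values and were not tested. Ctrl itself had a log2 fold change of -0.06 (edgeR adjusted p = 0.896).

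The log2 ratio of Cela2a to Cela3b was 1.33 ± 0.05 in wild type, against 1.17 ± 0.10 in AMKO (SD, n = 6 each). The wild type values of 1.26 to 1.40 and the AMKO values of 1.06 to 1.33 overlapped, again with 5 of the 6 AMKO libraries below the lowest wild type library. That of Cpa1 to Cpb1 was -0.31 ± 0.20 in wild type and -0.03 ± 0.18 in AMKO, and the ranges of -0.53 to -0.05 and -0.24 to 0.21 overlapped as well. The log2 ratio of Ctrb1 to Ctrl spread less among AMKO libraries (3.37 to 3.55) than among wild type libraries (3.17 to 3.76). All 21 ratios between the 7 genes overlapped between the genotypes.

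Cela1 parted from the other elastases in 1 library. Its log2 ratio to Cela2a was 0.33 to 0.49 in the 6 wild type libraries and 0.28 to 0.53 in AMKO 1 to 5, so that Cela1 had more counts than Cela2a in all of these. In AMKO 6 the ratio was -0.15. There Cela1 stood at 38971 CPM, within the range of the other libraries, while Cela2a (43276 CPM), Cela3b (20157 CPM), Cpa1 (25769 CPM) and Cpb1 (30391 CPM) were at their highest.

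**Figure D4:**
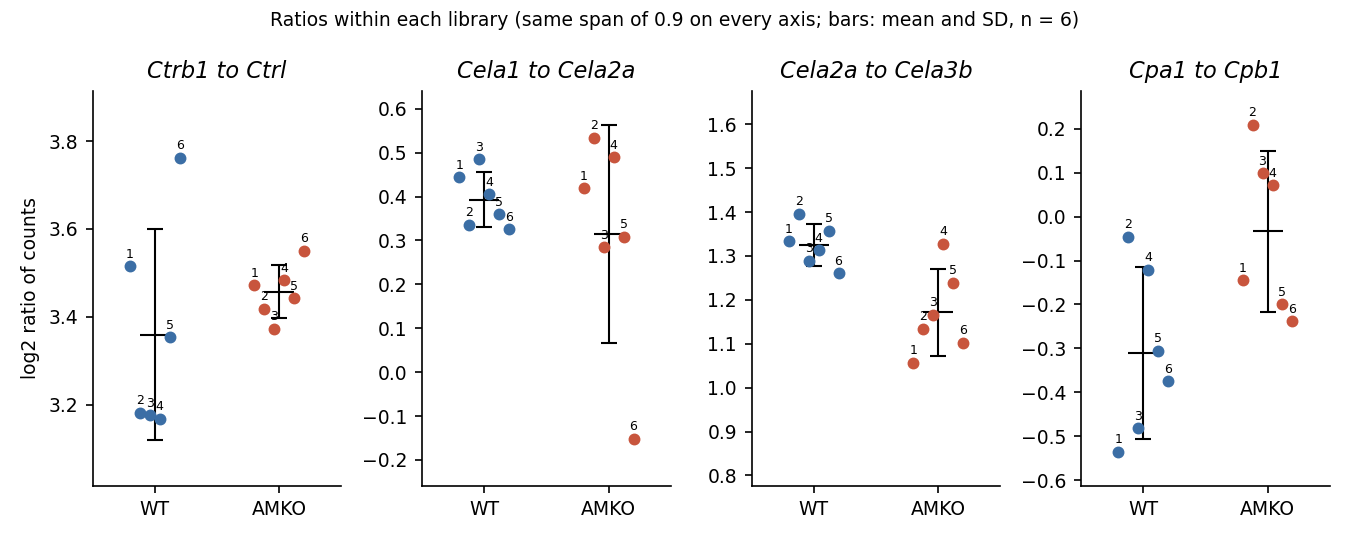
Log2 ratio of the counts of 4 pairs of enzyme genes in each library (points, labelled by replicate number), with the mean and SD of 6 libraries as bars and the same span on every axis. Cela2a to Cela3b is the tightest pair, and AMKO 6 lies apart at -0.15 for Cela1 to Cela2a.

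Levels of different genes were compared per length of annotated exons (CPM per kb, mean over 12 libraries). Ctrb1 was highest with 86420 ± 18099 CPM per kb and stood above each other gene in 12 of 12 libraries. Cela2a (18084 ± 3668) and Cela1 (17195 ± 3058) followed and did not differ beyond their spread, Cela2a being higher in 8 of 12 libraries. Cpa1 (10343 ± 2205) and Cela3b (7914 ± 1851) came next, with overlapping SD ranges although Cpa1 was higher in 12 of 12 libraries. Cpb1 (6222 ± 1454) and Ctrl (6215 ± 1441) were not separated, each being higher in 6 libraries. With the longest transcript as the length, Ctrb1 stayed first, but Cela1 (35787 ± 6365) passed Cela2a (29121 ± 5907), Cela3b (13500 ± 3158) passed Cpa1 (11435 ± 2438) and Ctrl (8173 ± 1895) passed Cpb1 (7518 ± 1757), so the order within these pairs rests on the gene model.

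Ctrc and Cela3a, which belong to the same families, were not called either (0 at an unadjusted p under 0.05, 0 by DESeq2 or voom). Ctrc, chymotrypsin C, which in humans degrades trypsinogen, was listed at 53.1 ± 7.75 and 53.0 ± 13.95 CPM (log2 fold change -0.01 with SE 0.15, edgeR adjusted p = 0.987), and its counts are uncertain because of the exons it shares with Cela2a. Cela3a was listed with 11 to 72 counts per library (log2 fold change 0.47, SE 0.38, adjusted p = 0.509). Its transcript matches that of Cela3b at 94.2% over 660 aligned bases, and no source used here says how reads with several matches were counted.

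Other digestive enzymes were among the genes whose levels followed the mean of the 7 most closely. Of 4254 other genes whose mean log2 CPM reached 5, those with the steadiest log2 ratios to that mean included the trypsinogen gene 2210010C04Rik (SD 0.10 over 12 libraries), the pancreatic lipase Pnlip (0.12) and the carboxyl ester lipase Cel (0.12). Tmed3, Desi1, Nupr1 and Insig2 came next with 0.13 each, beside a median of 0.31 over the 4254 genes. Of single genes, Cela1 was nearest to the aquaporin gene Aqp12 (SD 0.13) and Cpb1 to 2210010C04Rik (0.13). Ctrl was nearest to Ctrb1 (0.17), and Cela2a and Cela3b were nearest to each other.

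In the lists of other digestive enzymes edgeR called 1 gene. Of 3 tested trypsinogens, 0 were called (1 at an unadjusted p under 0.05, 0 by DESeq2 or voom). The remaining 5 in the table were listed at 0. How reads with several matches were counted is not known, and the likeness of trypsinogen transcripts was not examined. A listed 0 may therefore not mean absent mRNA, and the split of counts among the trypsinogens is uncertain. Try5 stood at 16589 ± 2666 CPM in wild type, against 23560 ± 9176 CPM in AMKO (log2 fold change 0.51, SE 0.21, edgeR adjusted p = 0.163). AMKO 6 stood at 41457 CPM of Try5 and the other 5 AMKO libraries between 16047 and 23964 CPM, and without AMKO 6 the log2 fold change of Try5 was 0.27. Of 8 amylases and nucleases, 0 were called (1 at an unadjusted p under 0.05, 0 by DESeq2 or voom). Of 6 lipases and cofactors, 1 fell, the secreted phospholipase Pla2g1b, and 0 rose by edgeR, beside 3.37% of all genes called lower. In this list 2 genes had an unadjusted p under 0.05, beside 21.9% of all genes tested. DESeq2 called 1 and voom 2, beside 1267 of 14500 and 1664 of 13743 genes over the whole table. Pla2g1b stood at 617 ± 157 CPM in wild type, against 392 ± 83.9 CPM in AMKO (log2 fold change -0.65 with SE 0.17, edgeR adjusted p = 0.0418). It missed the threshold in 7 of 12 fits on 11 libraries (without WT 3, 4 or 6 or AMKO 1, 3, 5 or 6), with adjusted p up to 0.0921.

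Of 6 zymogen granule proteins, 1 fell by edgeR and 0 rose, beside 3.37% of all genes called lower, with 1 at an unadjusted p under 0.05 and 1 called by DESeq2 and by voom. It was Cuzd1, a zymogen granule membrane protein, which fell from 2130 ± 410 to 1504 ± 234 CPM (log2 fold change -0.50 with SE 0.14, edgeR adjusted p = 0.0496). It missed the threshold in 11 of 12 fits on 11 libraries, all but the one without WT 2, with adjusted p up to 0.111. None of 7 tested protease inhibitors was called, among them Spink1, the trypsin inhibitor of the pancreas (713 ± 146 and 599 ± 103 CPM, log2 fold change -0.25, SE 0.14, adjusted p = 0.333). None of 3 tested cathepsins, lysosomal proteases that can cleave zymogens, was called either. In each of these 2 lists 1 gene had an unadjusted p under 0.05, beside 21.9% of all genes tested. DESeq2 called 0 in both, and voom 1 inhibitor and 0 cathepsins. Over the whole table DESeq2 called 1267 of 14500 genes and voom 1664 of 13743.

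Of 10 acinar transcription factors tested, 2 rose and 0 fell by edgeR, beside 2.41% of all genes called higher. Of the 10, 5 had an unadjusted p under 0.05, beside 21.9% of all genes tested. DESeq2 called 2 and voom 4, beside 1267 of 14500 and 1664 of 13743 genes over the whole table. These counts take either direction. The log2 fold changes of the 10 ran from -0.39 to 1.21, with 5 above 0 and 5 below. Ptf1a, the acinar subunit of the PTF1 complex whose motif is marked in the promoters above, ran from 46.1 over 80.9 to 107 CPM in wild type and from 75.02 over 188 to 258 CPM in AMKO. AMKO 5 (75.02 CPM) lay within the wild type range and the other 5 AMKO libraries above it. Ptf1a rose from 78.4 ± 19.4 to 181 ± 67.4 CPM (log2 fold change 1.21 with SE 0.26, edgeR adjusted p = 0.0145). It stayed called in each of the 12 fits on 11 libraries, with edgeR adjusted p up to 0.0395. It was not called against WT 4 to 6 alone, at a log2 fold change of 1.23 (edgeR adjusted p = 0.138). Nor was it called against WT 1 to 3 alone, at 1.20 (0.0957). Without WT 3, WT 6, AMKO 3 and AMKO 6 its log2 fold change was 0.82, and Ptf1a was not called (0.209). Bhlha15, also named Mist1, which governs the secretory architecture of acinar cells, rose from 19.9 ± 3.63 to 36.2 ± 6.42 CPM (log2 fold change 0.86 with SE 0.14, adjusted p = 0.00320). Each AMKO library (28.3 to 47.1 CPM) stood above each wild type library (14.6 to 26.01 CPM). Against WT 1 to 3 alone Bhlha15 was not called, at a log2 fold change of 0.72 (edgeR adjusted p = 0.0583).

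**Figure D5:**
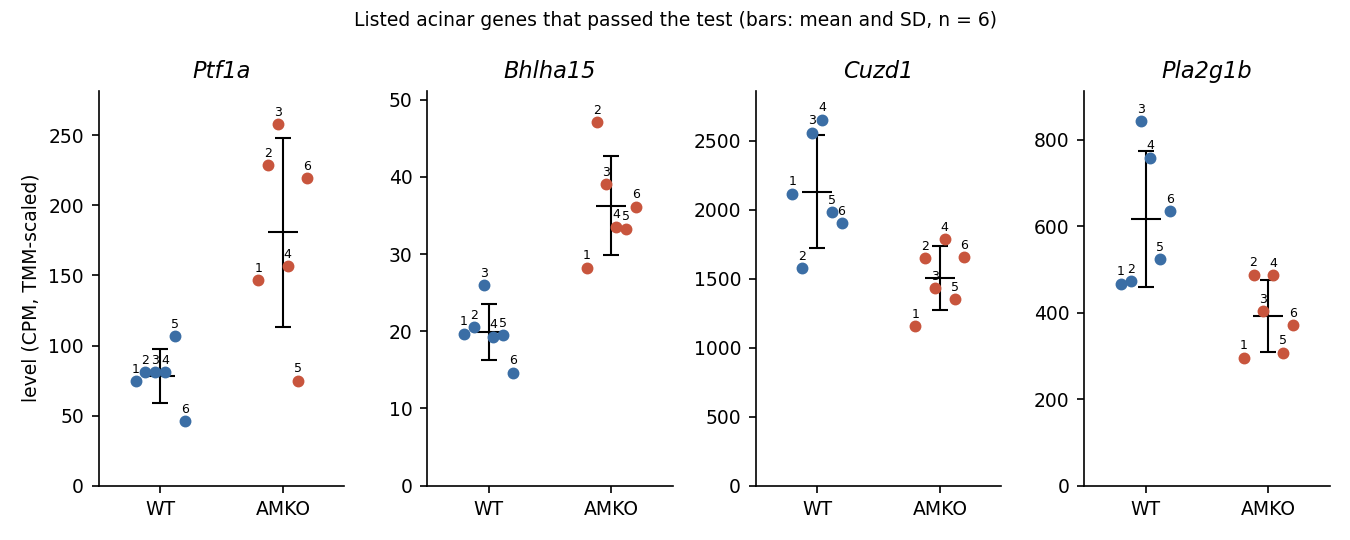
Level in CPM (TMM-scaled) by library of the 4 acinar genes of these lists that passed the test, with points labelled by replicate number and bars for the mean and SD of 6 libraries. Ptf1a and Bhlha15 are higher in AMKO, with AMKO 5 at 75.02 CPM for Ptf1a, and Cuzd1 and Pla2g1b are lower with overlapping libraries.

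Rbpjl, the acinar partner of PTF1A, stood at 56.6 ± 16.7 CPM in wild type, against 47.3 ± 8.99 CPM in AMKO (log2 fold change -0.26, SE 0.18, edgeR adjusted p = 0.421). The nuclear receptor Nr5a2, which acts with PTF1 on enzyme genes, stood at 60.1 ± 6.12 and 53.7 ± 7.09 CPM (log2 fold change -0.16 with SE 0.10, adjusted p = 0.349). In the main edgeR fit the interval of each enzyme gene ended below a log2 fold change of 0.66. This fit thus bounds an increase of any of the 7 at 1.57-fold, the bound of Cela3b, within 95% intervals taken singly. Under the alternatives the estimate reached 0.42 for Cela3b and 0.37 for Cpa1, and no bound was taken from those fits. No test compared the fold change of Ptf1a with that of an enzyme gene.

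Markers of other cells in the tissue were counted on the same fit. Of 12 duct and metaplasia markers, 4 fell (Krt20, Epcam, Spp1 and Muc1) and 0 rose by edgeR, beside 3.37% of all genes called lower and 2.41% higher. Of the 12, 5 had an unadjusted p under 0.05, beside 21.9% of all genes tested. DESeq2 and voom called 4 each, beside 1267 of 14500 and 1664 of 13743 genes over the whole table. The summed level of these markers, to which abundant genes add most, ran from 27451 to 33452 CPM in wild type and from 19300 to 32563 CPM in AMKO. Their mean deviation in log2 CPM, which weighs the markers equally, ran from 0.17 to 0.30 in wild type and from -0.42 to -0.04 in AMKO. It includes the 4 called genes, and 10 of the 12 markers had a log2 fold change below 0. Of 9 islet markers, 0 were called, with 1 at an unadjusted p under 0.05, 1 by DESeq2 and 0 by voom (sums of 444 to 1019 and 215 to 2082 CPM). Of 8 liver transcripts, 0 were called, with 0 at an unadjusted p under 0.05, 0 by DESeq2 and 3 by voom (sums of 49.6 to 193 and 77.0 to 214 CPM). The values over all genes given for the duct markers stand beside these counts too. Proteases of the same families that neutrophils and mast cells make were near the limit of detection. Of 8 such genes 3 passed the filter and 0 were called (0 at an unadjusted p under 0.05, 0 by DESeq2 or voom), and their summed level was at most 23.9 CPM in any library, while no library had fewer than 4438 CPM of any of the 7 pancreatic genes.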

How the data were processed

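The deposited table holds raw counts per gene symbol, whole numbers in 12 columns matched to samples by title. The submitters' processing notes name HISAT2 2.0.4 and mm10. No source used here gives the counter, annotation, strand use or treatment of reads with several matches. Genotypes came from the labels. No pair of replicate libraries was alike within sampling noise (chi-square over its degrees of freedom 9.15 to 66.6). The genotypes were compared by edgeR 4.0.16 under R 4.3.3: filterByExpr, TMM, quasi-likelihood F test, genotype as the only term, Benjamini-Hochberg over 13743 genes, tested on simulated data first. Intervals are at 95%. Log2 ratios used raw counts, with 0.5 added for likeness. Gene models came from GENCODE M21 (GRCm38) and promoters from RefSeq (GRCm38.p6), found for 7 of the 7 genes. Similar transcripts were sought with BLAST 2.17.0 over at least 300 bases. The genes and gene lists were chosen with earlier results of these data known. Named genes were the 7, their other family members, the called genes of each list (otherwise the 2 with most counts), genes nearest in pattern, Axl and Mertk, of which 1 gene is not reported here. Rbpjl and Nr5a2 were named outside this rule, after their values were seen. Alternatives were other scalings (RLE, total counts, TMM without the 50 most counted genes), other filters (none, 1 CPM in 6 libraries), DESeq2 1.42.0, limma 3.58.1 voom, a replicate block, parts of the libraries, and each library left out.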

Additional observations from a re-analysis of the deposited data

Results flagged for a closer look

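A search for libraries far from the rest of their group, over the levels of the 7 genes and the 21 ratios between them in each genotype (56 groups of 6 libraries), found 0 such levels and 7 such ratios. Chance gives such a gap in about 1 of 20 groups, and the ratios share genes, so they are not independent. The log2 ratio of Cela1 to Cela2a was -0.15 in AMKO 6, with the next AMKO library at 0.28, and that of Cela1 to Cela3b was 1.59 in WT 6, with the next at 1.72. The log2 ratio of Ctrl to Cela2a was -1.71 in WT 3 and -1.78 in AMKO 5, above the rest of their groups, which reached -2.02 and -2.26. That of Ctrl to Cpa1 was -1.14 in AMKO 5, where the next library had -1.51. In WT 5, which had the smallest share of Cpa1 among the 7 genes, the log2 ratio of Cela2a to Cpa1 was 1.14 and that of Cela3b to Cpa1 was -0.22, with the next libraries at 0.84 and -0.47.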

How the results depend on the processing

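Under all 23 alternatives 0 of the 7 enzyme genes were called, with adjusted p of at least 0.107. Fold changes kept their sign throughout for Cela3b (0.11 to 0.42) and Cpa1 (0.17 to 0.37), and changed it in 1 to 5 alternatives for each of the other 5. The number of genes called over the whole table, 794, moved to 456 on total counts, 1267 with DESeq2 and 1664 with limma voom, to 167 with only WT 4 to 6 as wild type and 231 with only WT 1 to 3, and to 98 without WT 3, WT 6, AMKO 3 and AMKO 6. Without 1 library it ran from 411 (without AMKO 3) to 1140 (without AMKO 5). With the longest transcript as length, 1 of 7 genes kept its rank of level. The replicate block gave 910 calls, 679 of them shared. Samples with the same number shared no origin in the labels, and their deviations from the group means correlated between -0.16 and 0.35 per pair, so the block is not read as a pairing. No scaling moved the median of all genes by more than 0.04 on the log2 scale.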
